A study of Mus musculus with 12 samples.

Results

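The genes described here are 10 markers of oligodendrocyte precursor cells and of the newly formed oligodendrocytes that arise from them: Pdgfra, Cspg4, Vcan, Olig1, Olig2, Sox10, Neu4, Gpr17, Bmp4 and Enpp6. They were taken by symbol, from a list chosen with earlier results of these data known. All 10 were found among the 17564 genes of both tables of the study. RNA-seq was carried out on ventral hippocampi from male C57BL/6 mice that were either WT or heterozygous for BDNF Val66Met (BDNF het-Met), a knock-in in which 1 copy of the gene for brain-derived neurotrophic factor codes for methionine in place of valine in its proregion. From 2 months of age the mice drank corticosterone (CORT, 25 mg/l in 1% ethanol), the main glucocorticoid of rodents, or 1% ethanol as vehicle (VEH), for 6 weeks. Genotype and drink gave 4 groups of 3 libraries, 12 in all, and each library held the RNA of 2 animals. The tables give a fitted log2 fold change (CORT minus VEH here) and its error per genotype but no value per library, and ± marks the standard error of the limma fit throughout. The direction rests on the name of the comparison, since the glucocorticoid targets checked did not all rise. With fitted values alone, single libraries, the overlap of groups and the depth per library cannot be shown.

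Precursor cells persist in the adult brain, where they divide, carry the receptor for platelet-derived growth factor A and the proteoglycan NG2, and give rise to oligodendrocytes. On the way they pass through a short committed stage, marked by Gpr17, Neu4 and Bmp4, and then a newly formed stage, marked by Enpp6, before they make myelin. Olig1, Olig2 and Sox10 are transcription factors of the whole lineage. These stages are the usual roles of the genes, and the grouping by role was made after their values were seen, so no test was made between the groups.

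The main pattern was negative log2 fold changes of the genes of the committed and newly formed stages in both genotypes, beside small positive differences of the precursor genes. Averaged over both genotypes, Enpp6 fell by 50.5%, Bmp4 fell by 42.6%, Gpr17 fell by 26.2% and Neu4 fell by 14.3%, each with an uncorrected p below 0.05 by limma standard errors. Over the same libraries Pdgfra, Cspg4 and Vcan differed by 4.74%, 5.93% and 4.36%, all towards higher levels, and only Cspg4 passed that p. This contrast of stages rests on 4 and 3 genes grouped after their values were seen, and further genes of both stages, described below by name, did not differ in this way. Their median averaged log2 fold change was -0.06 over 13 newly formed and -0.06 over 14 precursor genes. No member passed an adjusted p of 0.05 over all genes. In bulk tissue, fewer cells of a type and less RNA per cell cannot be told apart.

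The tissue held the lineage and its neighbours. Markers of hippocampal neurons such as Slc17a7 and Neurod6 had mean levels of 6.47 to 12.09 log2 CPM (CPM, read counts scaled to the library total) over 9 genes, and all 14 myelin genes searched for were present, at 2.94 to 10.49 log2 CPM. The members lay between 1.20 (Bmp4) and 6.39 log2 CPM (Pdgfra) in the authors' mean over libraries, where the median gene had 3.87. Per kb of exon, over all annotated exons of each gene joined, Olig1 was the highest member with 32.9 CPM per kb. Sox10 (11.7), Gpr17 (9.47), Pdgfra (8.39) and Olig2 (7.93) followed, then Cspg4 (2.37), Neu4 (1.77), Vcan (1.66), Enpp6 (1.20) and Bmp4 (1.02). The tables give no spread for these means, and the transcript forms in use were not separated, so the order is a description. The genes with the deepest falls, Enpp6 and Bmp4, were thus the members of lowest level.

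**Figure D1:**
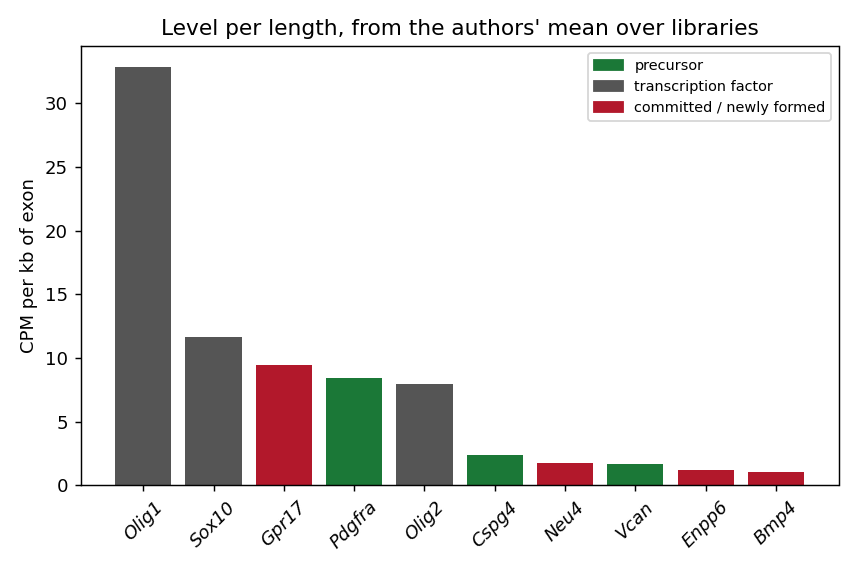
Level of the 10 genes in CPM per kb of exon, from the authors' mean over all libraries, coloured by the usual role of each gene. Olig1 stands highest at 32.9 CPM per kb, and Enpp6 and Bmp4 lowest at 1.20 and 1.02.

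The effect of CORT was compared first within each genotype. The study called a gene at an uncorrected p below 0.05 with more than 1.3-fold change. On that rule Enpp6 and Bmp4 were called in WT mice and Enpp6 and Gpr17 in BDNF het-Met mice, 2 of 10 members each and all lower under CORT. Among all genes 0.672% were called lower in WT mice and 2.52% under BDNF het-Met. Since the members were chosen with earlier results of these data known, such shares beside the members are a description. Without the fold change minimum, 3 members were lower (Enpp6, Gpr17 and Bmp4) and 1 was higher (Cspg4) in WT mice, against 1.57% and 2.25% of all genes. In BDNF het-Met mice 5 members were lower on that p (Enpp6, Gpr17, Neu4, Olig1 and Olig2), against 6.64% of all genes, and none was higher. The adjusted p by limma was at least 0.999 for every member in WT mice and at least 0.243 under BDNF het-Met. The members had a median log2 fold change of -0.08 in WT mice and of -0.24 in the BDNF het-Met group, against -0.003 and -0.006 over all genes. Weighted by the inverse squared standard error, the mean of the members was 0.00603 in WT mice, of the opposite sign, and -0.0652 under BDNF het-Met.

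**Figure D2:**
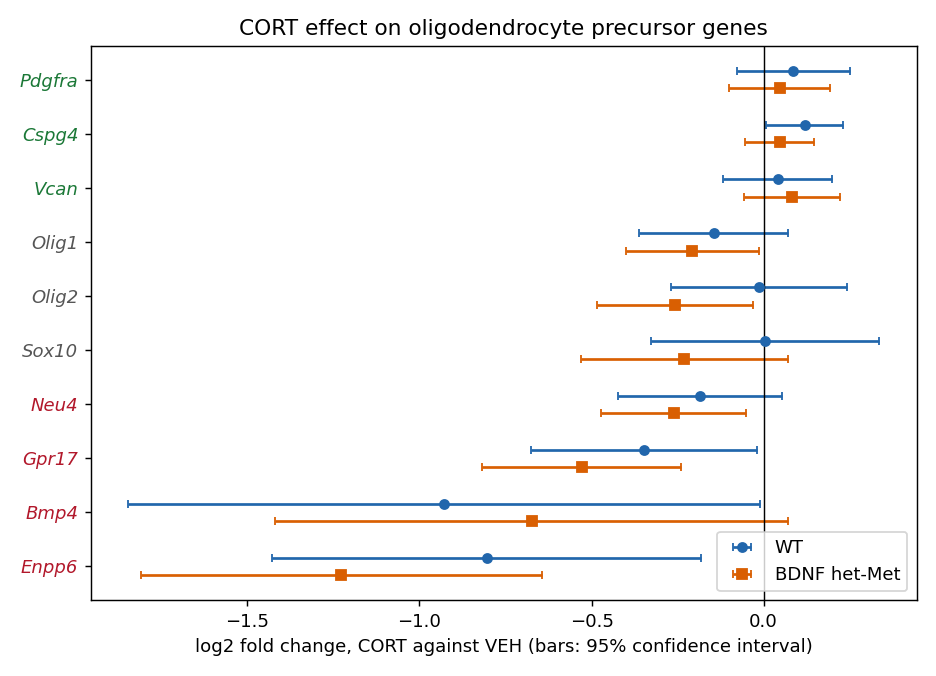
CORT log2 fold change of each gene (x axis, positive is higher under CORT) in WT (circles) and BDNF het-Met mice (squares), with 95% confidence intervals from the limma standard errors. Precursor genes (green labels) lie at or just above 0, the transcription factors (grey) at or below 0, and Neu4, Gpr17, Bmp4 and Enpp6 (red) below 0 in both genotypes.

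Among the precursor genes, Pdgfra (chromosome 5, 75152292 to 75198215) codes for the receptor that keeps precursors dividing in response to platelet-derived growth factor A. It differed by 0.09 ± 0.08 on the log2 scale in WT mice and by 0.05 ± 0.07 in BDNF het-Met mice, and passed in neither. The 95% confidence interval of the averaged effect, from -0.04 to 0.18, holds 0 and no fall of more than 0.04. Pdgfra is also a gene of meningeal and perivascular fibroblasts, of whose 6 markers none passed an uncorrected p of 0.05 by limma in either genotype. Of these markers, 5 had negative averaged log2 fold changes. Their median was -0.28 over all 6, with standard errors of 0.16 to 0.46. The share of fibroblasts in the Pdgfra value was not tested.

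Cspg4 (chromosome 9, 56865033 to 56899870), which codes for the proteoglycan NG2, was the one member that rose. It rose by 0.12 ± 0.05 on the log2 scale in WT mice (uncorrected p 0.0387 by limma) and stood at 0.05 ± 0.05 in BDNF het-Met mice. Averaged over genotypes the rise was 0.08 ± 0.03 (uncorrected p 0.0331, adjusted p 0.335 by the limma standard errors). It thus passed the p but stayed far under the 1.3-fold minimum. NG2 is also made by pericytes. Of 8 pericyte markers none was higher and 2 were lower at an averaged p below 0.05, Notch3 (-0.29 ± 0.05) and Rgs5 (-0.18 ± 0.06). Among all genes 6.18% were lower at that p and 7.17% higher. The share of pericytes in the Cspg4 value was not tested.

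Vcan (chromosome 13, 89655312 to 89742509) codes for versican, a large proteoglycan of the extracellular matrix. Its log2 fold change of 0.04 ± 0.07 in WT mice, and of 0.08 ± 0.06 in the BDNF het-Met group, passed no threshold. An antisense gene, Gm4117, overlaps it and is in the tables at a mean of -1.20 log2 CPM. All 3 precursor genes therefore had positive log2 fold changes in both genotypes, of 0.12 or less.

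Olig1 and Olig2, basic helix-loop-helix factors that specify the lineage, lie next to each other on chromosome 16 (91269772 to 91271933 and 91225457 to 91228677). Olig1 stood at -0.14 ± 0.10 on the log2 scale in WT mice and fell by 0.21 ± 0.09 in BDNF het-Met mice (uncorrected p 0.0382 by limma). Olig2 stood at -0.01 ± 0.12 in WT mice and fell by 0.26 ± 0.10 in BDNF het-Met mice (uncorrected p 0.0291 by limma). Both stayed under the 1.3-fold minimum. With ordinary standard errors, which use only the spread of the gene itself, the p in BDNF het-Met mice was 0.0814 for Olig1 and 0.0629 for Olig2, so neither stayed below 0.05. Averaged over genotypes, Olig1 fell by 0.18 ± 0.07 (uncorrected p 0.0221 by limma, not below 0.05 with ordinary standard errors), whereas Olig2 stood at -0.14 ± 0.08 (uncorrected p 0.107).

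Sox10 (chromosome 15, 79154908 to 79165240), a factor needed for myelin gene expression, stood at 0.004 ± 0.15 on the log2 scale in WT mice and at -0.23 ± 0.14 in BDNF het-Met mice. It passed no threshold in either genotype, and the 95% confidence interval of its averaged effect ran from -0.34 to 0.11. The transcription factors thus ranged from -0.14 to 0.004 in WT mice and from -0.26 to -0.21 in BDNF het-Met mice.

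Enpp6 (chromosome 8, 46986887 to 47096762) codes for a choline-specific phosphodiesterase and is a marker of oligodendrocytes that have just left the precursor stage. It had the largest averaged effect of the members. In WT mice its level under CORT fell by 42.7% (-0.80 ± 0.28 on the log2 scale, uncorrected p 0.0161 by limma). In BDNF het-Met mice it fell by 57.3% (-1.23 ± 0.26, uncorrected p 7.24e-04 by limma). By p it ranked 172nd of the 17564 genes in WT and 48th in BDNF het-Met mice. Averaged over genotypes its log2 fold change was -1.02 with a 95% confidence interval of -1.44 to -0.59, and it ranked 36th (uncorrected p 2.81e-04, adjusted p 0.137 with the limma standard errors). With the ordinary standard error its p was 0.0512 in WT mice and 0.00637 under BDNF het-Met.

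Bmp4 (chromosome 14, 46383520 to 46390669) codes for a secreted bone morphogenetic protein, a signal known to hold precursors back from differentiation, and committed precursors are among the cells that make it. In WT mice it fell by 47.4% (-0.93 ± 0.42 on the log2 scale, uncorrected p 0.0480 by limma). In BDNF het-Met mice its log2 fold change was -0.67 ± 0.34 (uncorrected p 0.0717 by limma). The averaged effect was -0.80 with a 95% confidence interval of -1.39 to -0.21 (uncorrected p 0.0125, adjusted p 0.262 with the limma standard errors). Bmp4 had the widest errors of the members. Its WT p was 0.104 with the ordinary standard error and 0.0530 after centring by expression quintile, and passed 0.05 with neither.

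The 250 bases before the start of Enpp6 and Bmp4, the members that fell most, are shown beside those of Pdgfra, which did not pass the test. They come from RefSeq on GRCm38.p6 and run 5′ to 3′ on the strand of the gene. Windows of 7 of the 10 members were searched. Gpr17, Olig1 and Sox10 were left out of this search, so it says nothing about them. The window of Pdgfra ends just before the RefSeq start, which lies before the GENCODE start given above. The motifs searched, on both strands, were the glucocorticoid receptor half-site AGAACA, the E-box CAGCTG that OLIG factors bind, and the SOX site AACAAT. Capitals mark a match.
Enpp6 (chr8:46986637-46986886, plus strand): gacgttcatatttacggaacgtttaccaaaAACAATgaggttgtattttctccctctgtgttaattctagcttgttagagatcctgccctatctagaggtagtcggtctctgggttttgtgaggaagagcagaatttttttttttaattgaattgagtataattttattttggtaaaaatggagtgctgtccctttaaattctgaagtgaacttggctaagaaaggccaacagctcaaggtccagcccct
Bmp4 (chr14:46390670-46390919, minus strand): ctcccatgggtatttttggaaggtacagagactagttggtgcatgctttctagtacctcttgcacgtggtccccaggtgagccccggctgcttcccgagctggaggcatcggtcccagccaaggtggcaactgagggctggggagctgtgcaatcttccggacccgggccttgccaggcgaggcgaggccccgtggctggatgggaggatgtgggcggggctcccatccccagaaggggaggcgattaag
Pdgfra (chr5:75152001-75152250, plus strand): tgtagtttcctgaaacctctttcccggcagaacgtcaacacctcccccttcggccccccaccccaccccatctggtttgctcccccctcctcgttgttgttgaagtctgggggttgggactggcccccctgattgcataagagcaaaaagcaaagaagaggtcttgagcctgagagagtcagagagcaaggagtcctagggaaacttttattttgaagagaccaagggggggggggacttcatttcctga

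The promoter of Enpp6 was poor in G and C (38.4%, against 63.2% for Bmp4, 54.4% for Pdgfra and a median of 52.4% over all promoters). It held the SOX site once, beginning 220 bases before the start, on the strand of the gene, and Olig2 held it once. The SOX site was found in 9.42% of 32851 promoters of this length, AGAACA in 16.1% and CAGCTG in 13.0%. Neither AGAACA nor CAGCTG occurred in these windows of the 7 members. A match is a run of letters and no evidence of binding, and a lack of one says nothing about sites elsewhere.

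Gpr17 (chromosome 18, 31942997 to 31949636), a G protein-coupled receptor that is switched on in committed precursors and off again before myelination, fell in both genotypes. In WT mice it fell by 21.4% (-0.35 ± 0.15 on the log2 scale, uncorrected p 0.0394 by limma), and in BDNF het-Met mice it fell by 30.7% (-0.53 ± 0.13, uncorrected p 0.00204 by limma). The averaged effect was -0.44 with a 95% confidence interval of -0.66 to -0.22 (uncorrected p 0.00106, adjusted p 0.195 with the limma standard errors), rank 95 of all genes. With the ordinary standard error its p was 0.0934 in WT mice and 0.0124 under BDNF het-Met.

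The whole of Gpr17 lies inside Lims2, a gene of the opposite strand (chromosome 18, 31922290 to 31958619), and the longest match between their transcripts was 123 bases. The library kit keeps strand, but whether the counting used it is not given in the sources used here. Lims2 stood at -0.40 ± 0.16 in WT mice and at -0.53 ± 0.14 in BDNF het-Met mice, close to the log2 fold changes of Gpr17, at a mean of 2.79 log2 CPM against 5.62 for Gpr17. How far reads of either gene were counted for the other was not tested.

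Neu4 (chromosome 1, 94020451 to 94028334), a sialidase that trims sialic acid from glycoproteins and glycolipids, fell less. It stood at -0.18 ± 0.11 on the log2 scale in WT mice (uncorrected p 0.117 by limma) and fell by 0.26 ± 0.10 in BDNF het-Met mice (uncorrected p 0.0201 by limma). Averaged over genotypes it fell by 0.22 ± 0.07 (uncorrected p 0.0106, adjusted p 0.253 with the limma standard errors). Its p below 0.05 in BDNF het-Met mice did not rest on the moderation of the error, and with the ordinary standard error the p was 0.0278. Neu4 was well under the 1.3-fold minimum in both genotypes.

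The members differed in how much they varied between libraries of a group. The ratio of the ordinary to the moderated standard error is above 1 for a gene that varied more than the prior of the limma fit. It was 1.21 for Enpp6, 1.21 for Gpr17, 1.20 for Sox10 and 1.19 for Bmp4, at the 96.2nd, 95.5th, 95.1st and 93.9th percentile of all genes. Cspg4 had a ratio of 0.669, at the 2.71st percentile, and the other members lay between 0.973 and 1.16. The genes that fell most were thus also among those that varied most within groups. Whether they varied together, library by library, cannot be seen in fitted values, so 10 members are not 10 independent pieces of evidence.

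The next question was whether the CORT effect on these genes differed between genotypes. The log2 fold change was further from 0 in BDNF het-Met than in WT mice for 7 of 10 members, as for 57.6% of all genes. Bmp4, Pdgfra and Cspg4 were the 3 for which it was not. For the difference between genotypes 0 members passed an uncorrected p of 0.05 by the limma standard errors, against 2.41% of all genes, and the smallest was that of Olig2 (0.144). For Enpp6 the difference (BDNF het-Met minus WT) was -0.42 with a 95% confidence interval of -1.28 to 0.43, and for Gpr17 it was -0.18 with an interval of -0.62 to 0.26. The call of Gpr17 in BDNF het-Met mice alone and that of Bmp4 in WT mice alone, by the rule of the study, therefore do not show a difference between genotypes. Nor are the effects shown to be alike, since the intervals reach beyond a 1.3-fold difference, which is 0.38 on the log2 scale, for Enpp6, Gpr17, Bmp4, Olig2, Sox10 and Neu4.

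**Figure D3:**
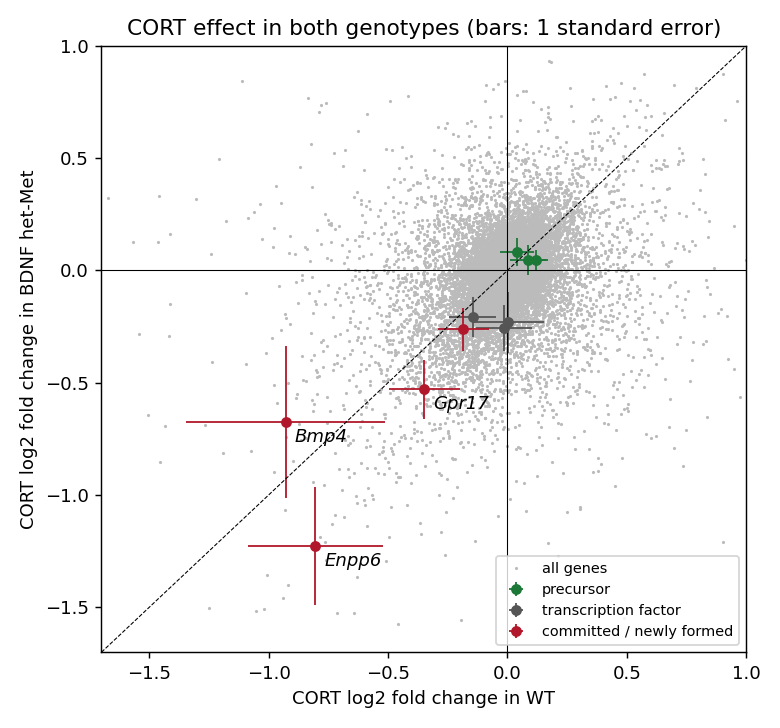
CORT log2 fold change in WT (x axis) against BDNF het-Met mice (y axis) for all genes (grey) and the 10 members (colours by role), with bars of 1 standard error and a dashed line of equal effect. Enpp6, Bmp4 and Gpr17 lie in the lower left, and the 3 precursor genes just above 0 on both axes.

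Since the comparisons in WT and BDNF het-Met mice share no library, their average uses all groups, and the test of it takes the fitted effects as uncorrelated. At an uncorrected p below 0.05 for the averaged effect, 5 members were lower (Enpp6, Gpr17, Neu4, Bmp4 and Olig1), against 6.18% of all genes, and 1 was higher (Cspg4), against 7.17%. The members were chosen with earlier results of these data known, so the excess is no independent support. An adjusted p below 0.05 was reached by 13 of all genes (0.074%) and by no member with the limma standard errors. The joint F over all groups had an uncorrected p below 0.05 for Enpp6 (0.00152), Gpr17 (0.00609) and Neu4 (0.0491) by limma, 3 of 10 members against 7.43% of all genes.

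Other genes of the same stages were then counted at an uncorrected p below 0.05 for the averaged effect. At that p 6.18% of all genes were lower and 7.17% higher. Of 14 further precursor genes, 5 were lower and 1 higher. C1ql1, a secreted synaptic organiser of the C1q family, fell by 0.31 ± 0.07, and Lhfpl3, a tetraspan membrane protein, fell by 0.24 ± 0.07. The Notch ligand Dll1 rose by 0.22 ± 0.07, and the transcription factor Nkx2-2 fell by 0.24 ± 0.10. The remaining genes that fell were Ptprz1 and Tmem100, and 8 of the 14, Sox5 and Sox6 among them, did not pass. The precursor genes outside the 10 were thus not uniformly near 0.

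Of 13 further genes of newly formed oligodendrocytes, 4 were lower and none higher, against 6.18% and 7.17% of all genes. The long noncoding RNA 9630013A20Rik, used as a marker of this stage, fell by 1.38 ± 0.28. Its mean level was low, at 0.44 log2 CPM. The scaffold gene Cnksr3 fell by 0.38 ± 0.12. Bcas1, a myelin-associated protein of early oligodendrocytes, fell by 0.37 ± 0.15, and the kinase Fyn fell by 0.13 ± 0.04. Tcf7l2, a transcription factor of the same stage, stood at 0.23 ± 0.17 in WT mice and at -0.35 ± 0.16 in BDNF het-Met mice, with an uncorrected p of 0.0295 for their difference by the limma standard errors. On that test 1 of the 13 genes was below 0.05, against 2.41% of all genes. Tcf7l2 was named after its values were seen, and the smallest adjusted p of that test over all genes was 0.9999. Myrf, Itpr2 and Tns3 were among the 9 that did not pass. The median averaged effect was -0.06 over these 13 genes, -0.06 over the 14 precursor genes and -0.16 over the 10 members, against -0.005 over all genes.

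Of 14 myelin genes, 3 were lower and none higher on the averaged effect, Opalin (-0.50 ± 0.19) and Aspa (-0.39 ± 0.14) among them. Among all genes 6.18% were lower on the averaged effect. In WT mice none of the 14 passed, and in BDNF het-Met mice 5 were lower, against 6.64% of all genes. The median averaged effect of the myelin genes was -0.19. Beside them Enpp6 stood at -1.02, Bmp4 at -0.80 and Gpr17 at -0.44, and no test was made between genes.

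Among ligands and receptors, none of the 5 genes for platelet-derived growth factors and their second receptor passed on the averaged effect, and Pdgfa, the ligand of PDGFRA, had -0.03 ± 0.04. In the pathway of bone morphogenetic proteins, 4 of 20 genes were lower and 3 higher, against 6.18% and 7.17% of all genes. Id1 and Id3, inhibitors of helix-loop-helix factors and known targets of the pathway, had averaged effects of -0.30 ± 0.06 and -0.29 ± 0.09. The antagonist Chrd rose by 0.20 ± 0.05 and the receptor Bmpr2 by 0.12 ± 0.05. The others that passed were Smad1 and Id4, both lower, and the antagonist Grem1, higher. Bmp4 is made by other brain cells too, and the cell types behind these values were not separated.

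Markers of other cells moved with the members in part. Of 4 genes of dividing cells in the tables, 3 were lower on the averaged effect, Top2a (-0.93 ± 0.24), Mki67 (-0.48 ± 0.17) and Cdk1 (-0.89 ± 0.35). Ccnb1 was not listed. The mean levels of Top2a and Cdk1 were low, at 0.32 and -1.45 log2 CPM, which limits what their falls can show. Of 7 microglia markers 5 were lower and none higher, with negative averaged effects of all 7 and a median of -0.35, further from 0 than the -0.16 of the members. Of 7 astrocyte markers 4 were lower and 1 higher (median -0.14), and the water channel gene Aqp4 (-0.65 ± 0.09) had an adjusted p of 0.0431 with the limma standard errors, which no member reached. Of 6 endothelial markers 2 were lower, and of 9 neuron markers 2 were higher. Among all genes 6.18% were lower and 7.17% higher on the averaged effect. All 7 choroid plexus markers had negative log2 fold changes in WT mice (median -1.54), with standard errors of 0.94 (Kl) to 2.32 (Ttr). In BDNF het-Met mice 4 of them had positive and 3 had negative log2 fold changes (median 0.13). None passed an uncorrected p of 0.05 by limma in either genotype. The part of cell composition, tissue taken at dissection or cell division in the values of the members was not tested.

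**Figure D4:**
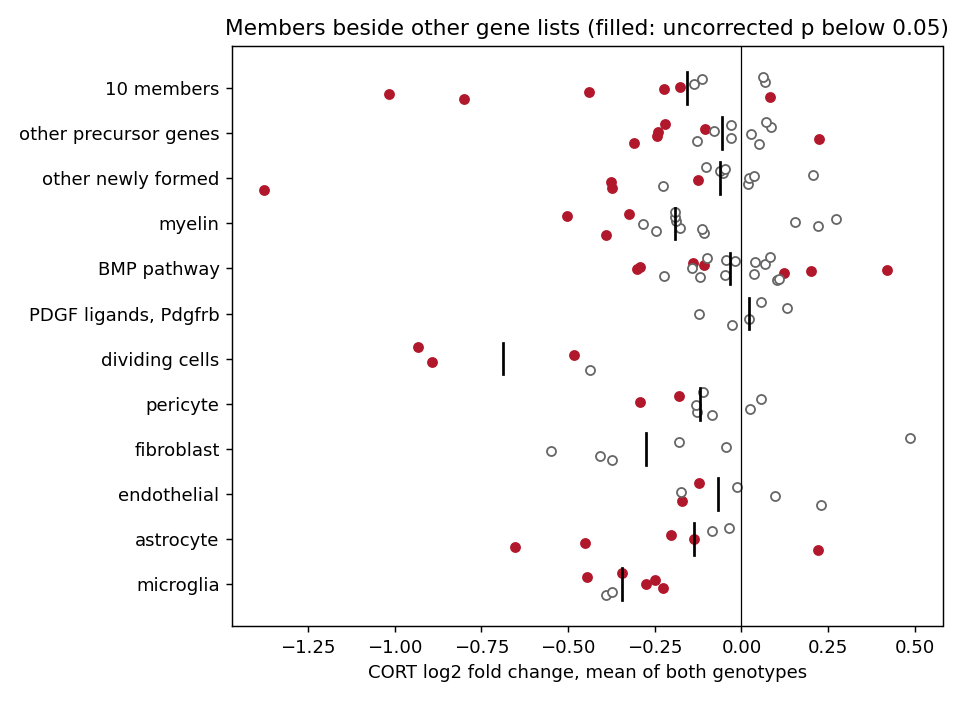
CORT log2 fold change averaged over both genotypes (x axis) for each gene of the members and of 11 other lists. Filled points had an uncorrected p below 0.05 and the vertical bar is the median of the list, -0.16 for the members and -0.19 for the myelin genes.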

How the data were processed

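The data are fitted values from RNA-seq of 12 libraries in 4 groups, assigned by their titles. Per the methods of the study and the submitters' processing notes, the authors removed low-quality reads from 75-bp single-end stranded libraries, aligned the rest with STAR to GRCm38 (mm10) with Ensembl annotation, took counts from featureCounts and ran limma-voom on them. For versions, the filter on genes, normalization factors and the use of strand in counting, nothing is stated in the sources used here. The deposited log2 values are mean log2 CPM, log2 fold change (VEH minus CORT) and its ordinary standard error. The deposited p-values are the uncorrected p, its Benjamini-Hochberg adjustment and that of the joint F, and the deposited scores are the moderated t and F. Thus the effects per genotype are the authors' own comparison, not refitted here, because no value per library was in the tables. The fit lists 7 residual degrees of freedom where 12 libraries in 4 groups leave 8, and the reason is not stated.

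The sign was turned to CORT minus VEH. The direction rests on the name of the comparison. With it, the glucocorticoid targets Fkbp5 and Plin4 rose in both genotypes (averaged log2 fold changes of 0.32 and 1.61), whereas Tsc22d3 was lower in WT and Per1 in BDNF het-Met mice. Pdk4 and Sgk1 passed in neither. The moderated standard error printed is the log2 fold change divided by t. The average and the difference of both effects were tested with the summed squared standard errors at 10.9 degrees of freedom and adjusted over all 17564 genes. These tests take both effects as uncorrelated, which the tables do not bear out exactly: 3 times the joint F less both squared t, which cannot be below 0 for uncorrelated effects, was below 0 for 3.47% of genes (lowest -0.12). Confidence intervals are at 95% and reflect the spread between these libraries. Coordinates (from 1) and exon lengths came from GENCODE M21 on GRCm38, and transcripts were compared with blastn (at least 75 bases at 98% identity). The named genes were the members, the direction check genes and, of each other list, at most the 4 of smallest averaged p that passed an uncorrected p of 0.05 in either genotype or on average. Tcf7l2, Pdgfa and others named as not passing or only counted were added after their values were seen. Members and lists were chosen with earlier results of these data known, so no p was adjusted over a list alone. Tools were Python 3.11.15, pandas 2.3.3, numpy 2.4.6 and scipy 1.17.1. Values of some single genes of the lists are not reported here.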

Additional observations from a re-analysis of the deposited data

How the results depend on the processing

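Centring by expression quintile turned the direction of no member in either genotype. The ordinary standard error leaves the log2 fold change as it is and could not have turned one. Without the fold change minimum 4 members were called in WT mice and 5 under BDNF het-Met, and with a minimum of 1.5 there was 1 in BDNF het-Met mice (Enpp6). At a p threshold of 0.01 no member (0) was called in WT, and 2 had an averaged effect. With ordinary standard errors 0 members were called in WT, and with centring by expression quintile there was 1 (Enpp6). With Benjamini-Hochberg adjustment over all genes 0 members had an averaged effect by the limma standard errors, where 6 had an uncorrected p below 0.05. A mean weighted by the inverse squared standard error was 0.00603 (log2) in WT mice, of the opposite sign to the median, and -0.0652 under BDNF het-Met, because the genes with small errors (Cspg4, Vcan and Pdgfra) weigh most. Of 20 log2 fold changes of single members, 5 lost an uncorrected p below 0.05 with ordinary standard errors and 1 with centring by expression quintile. For the difference between genotypes 0 members had an uncorrected p below 0.05 by the limma standard errors, and 0 with ordinary standard errors or centring by expression quintile. A stricter threshold or the expression minimum could not have raised that count. Leaving out a library was not run and no paired analysis was possible because the tables hold fitted values and none per library. The precision is limited by 3 libraries per group, and the depth of each library is unknown.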

Other observations

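The joint F spans 3 contrasts, and what is left of 3 times F once each squared t of a CORT comparison is taken off belongs to the genotypes, with no sign or p of its own. That rest was 1.80 for Enpp6, 1.28 for Sox10 and 0.574 for Neu4, and 0.433 or less for the other members, where the median of all genes was 0.433. The rest for Olig2 was -0.01, so the subtraction was not exact.

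Pdgfra, Olig1, Bmp4, Enpp6 and Vcan have genes of the opposite strand within or across their span that are not in the tables. The longest such overlap was that of Gm45600 with Enpp6, over 19383 bases, none of which gave a match of 75 bases between their transcripts. The longest matches between transcripts of opposite strands were 344 bases (99.7% identity) for Pdgfra and Gm42802, 168 for Pdgfra and Gm42803, 157 for Olig1 and Gm15966, and 89 for Bmp4 and Gm15217. The part of these overlaps in the values was not tested.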
